A study of Mus musculus with 51 samples.

Results

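The livers of mice that had undergone Roux-en-Y gastric bypass (RYGB) were compared with those of sham-operated mice, over all 10285 genes with an identifier in the liver expression table. The comparison used 9 of the 51 libraries of the series, taken by the tissue and surgery given in their labels: 5 RYGB livers and 4 sham livers, each from a different animal. All animals were male C57Bl6 mice with diet-induced obesity. After surgery, both groups received an elemental liquid diet and were returned step by step to high fat food, and the sham group was given restricted food so that its weight matched that of the RYGB group. Tissues were taken 9 weeks after surgery, in the morning, after an overnight fast. The comparison is therefore between bypass and a weight-matched, food-restricted sham operation; no freely fed sham liver was analysed here, and the labels state no age for the animals.

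RYGB reduces the stomach to a small pouch and joins it to the jejunum, so that food bypasses most of the stomach and the duodenum. The liver receives the portal blood that drains the gut. It makes most plasma proteins, including clotting factors and complement, turns cholesterol into bile acids, oxidises fatty acids during fasting under the nuclear receptor PPARA, and holds a large resident macrophage population, the Kupffer cells. RNA was measured in whole tissue, so a lower value for a cell type's genes can come from fewer such cells or from less RNA per cell, and these cannot be told apart.

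Expression is given as CPM, read counts scaled by the library total, as deposited. A log2 fold change is the RYGB mean less the sham mean on the log2(CPM + 1) scale, which understates changes of low genes. Values listed for sham are for sham 1 to 4 and values listed for RYGB are for RYGB 1 to 5, in that order. The libraries did not separate cleanly by surgery. On the first principal component, which held 58.2% of the variance, RYGB 3 (103.9) and RYGB 4 (77.6) lay at one end and sham 3 (-104.6) and sham 4 (-84.8) at the other. RYGB 1 correlated better with a sham library (r = 0.919) than with any other RYGB library (at most 0.906), and so did RYGB 5 (0.961 against 0.915). The GC content of a gene's transcript moved with surgery. The Spearman correlation across genes between a library's deviation from the gene mean and GC content ran from -0.44 to -0.28 in the sham libraries and was -0.22, 0.12, 0.61, 0.52 and -0.03 in RYGB 1 to 5. The median log2 fold change rose from -0.54 in the fifth of genes with the lowest GC content to 0.76 in the fifth with the highest. The part of GC content in the results was not tested beyond the values given with each library's GC trend removed, which stand beside the results as GC-adjusted values.

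**Figure D1:**
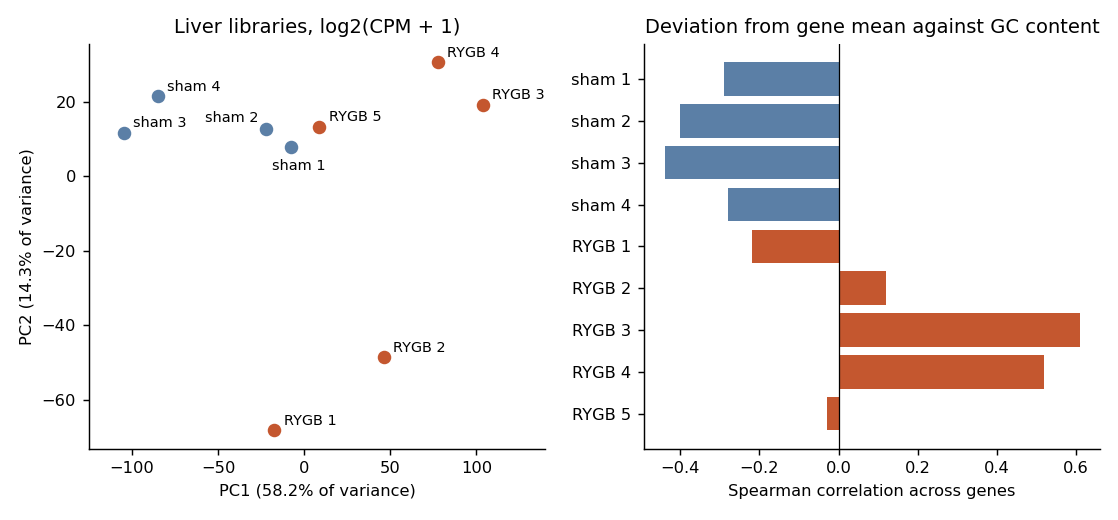
Left, the 9 liver libraries on the first and second principal components of log2(CPM + 1), with sham in blue and RYGB in orange. Right, for each library, the Spearman correlation across genes between its deviation from the gene mean and transcript GC content; the 4 sham bars are all negative and those of RYGB 3 and RYGB 4 reach 0.61 and 0.52.

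With limma, 476 genes (4.63%) passed an adjusted p of 0.05, 209 of them higher after RYGB (2.03%) and 267 lower (2.60%), and 3474 had an unadjusted p below 0.05. Of the 476, 421 had no overlap between the groups; over all genes, every RYGB value lay above every sham value for 4.34% and below for 8.01%. Over all genes the median log2 fold change was 0.26, and scaling by the median of ratios lowered fold changes by a median of 0.20, so the fold changes below are to be read against a shifted centre. That scaling gave 513 higher and 479 lower genes, and with the GC trends removed 247 were higher and 281 lower, 292 of the calls being shared. The number of calls rested on single libraries. It was 9, 14 and 8 without RYGB 2, 3 or 4, and 12, 3 and 6 without sham 2, 3 or 4, but 2253, 1046 and 1317 without RYGB 1, RYGB 5 or sham 1. The fold changes of the 476 genes kept their sign each time a library was left out. For 445 of them, the call stood in exactly 3 of the 9 leave-one-out fits, and for 11 it stood in 5 or more. In none of the 25 gene lists described below did more than 2 members pass, in either direction, once any one of RYGB 2, 3 or 4 or sham 2, 3 or 4 was left out. Counts of called members in each list are to be read beside the 2.03% of all genes that rose and the 2.60% that fell.

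**Figure D2:**
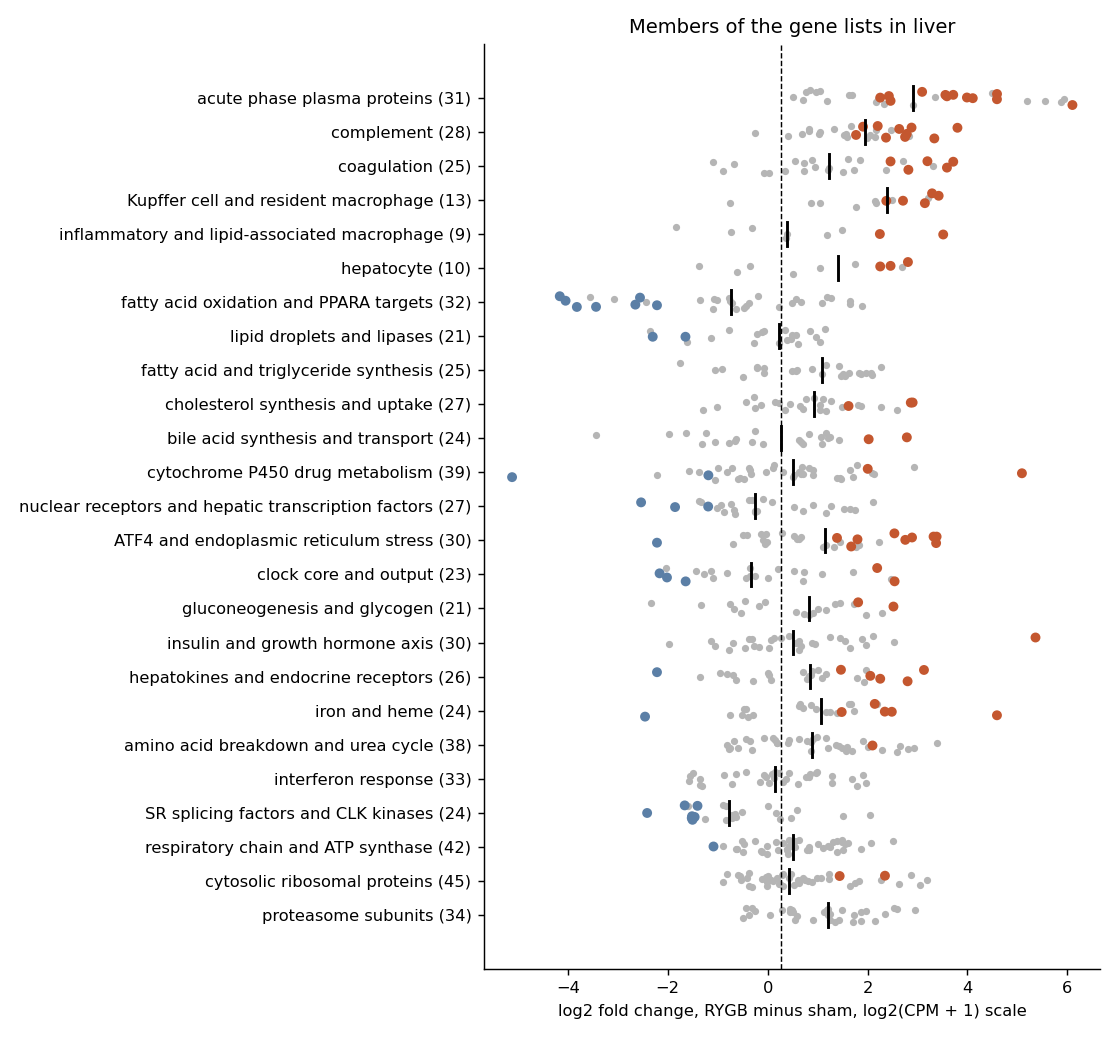
Log2 fold change of each measured member of 25 gene lists in liver, RYGB minus sham, with the number measured in brackets. Large points passed an adjusted p of 0.05 (orange higher, blue lower), small grey points did not, black bars are list medians, and the dashed line is the median of all genes, 0.26; the medians of the acute phase (2.91) and Kupffer cell (2.38) lists lie farthest to the right.

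Only Cyp2c70 and Scara5 were called in all 9 of those fits, and Serpina1e and Themis in 8. Cyp2c70, the mouse cytochrome P450 that makes muricholic acids, is at chr19:40153353-40187333 (GRCm38). It measured 48.4, 100.1, 57 and 16.9 CPM in the sham livers and 2623, 3034, 1066, 1629 and 821 in the RYGB livers. The lowest RYGB liver was thus well above the highest sham liver (log2 fold change 5.09 ± 0.51 (SE), adjusted p = 0.0025; GC-adjusted log2 fold change 5.36). Scara5, a scavenger receptor that can take up ferritin (chr14:65666403-65764826), was at 0.4, 2.6, 0.1 and 0.1 CPM in sham and 63.3, 181, 64, 19.8 and 26.1 in RYGB (log2 fold change 5.08 ± 0.61 (SE), adjusted p = 0.00981). It was hardly detected in 3 of the sham livers and clearly present in every RYGB liver. Serpina1e, an alpha-1-antitrypsin paralog (chr12:103946931-103958975), measured 32.4, 108, 4.1 and 95.3 CPM in sham and 1519, 624, 957, 3634 and 2215 in RYGB, again without overlap (log2 fold change 5.35 ± 0.80 (SE), adjusted p = 0.0176). The Serpina1 genes are near-identical copies, so the division of reads among them is uncertain. Nnmt, nicotinamide N-methyltransferase, and Pnp, purine nucleoside phosphorylase, were also higher, by 4.30 (adjusted p = 0.0302) and 3.67 (adjusted p = 0.0254).

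Among the genes that fell, Themis (chr10:28668360-28883818), known as a signalling protein of developing T cells, went from 44.2, 40.0, 74.1 and 22.8 CPM in sham to 6.8, 2.3, 3.7, 2.2 and 4.5 in RYGB (log2 fold change -3.20 ± 0.42 (SE), adjusted p = 0.0111). All 5 RYGB livers were below the lowest sham liver. T cell markers were scarce in these livers: 3 of the 18 listed T and NK cell markers were in the table, summing to between 1.2 and 7.4 CPM in sham and between 2.4 and 15.4 in RYGB. Aqp4, a water channel, measured 113, 122, 163 and 155 CPM in sham and 8.8, 6.8, 5.4, 13.9 and 38.8 in RYGB (log2 fold change -3.48 ± 0.47 (SE), adjusted p = 0.0111). RYGB 5 had the highest RYGB value and was still below each sham liver. Vldlr, the very low density lipoprotein receptor, was at 65, 35.7, 19.6 and 12.1 CPM in sham and 0.9, 2.5, 1.5, 2 and 2.5 in RYGB (log2 fold change -3.34 ± 0.48 (SE), adjusted p = 0.0155). Osbpl3, an oxysterol-binding family member, fell by 4.21 on the log2 scale (adjusted p = 0.0243), and Esrrg, an orphan nuclear receptor active in energy metabolism, fell by 3.67 (adjusted p = 0.0302). Slc15a2, a peptide transporter, fell by 2.74 (adjusted p = 0.0377), and Fign, a microtubule-severing enzyme, fell by 2.25 (adjusted p = 0.0155).

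Plasma proteins of the acute phase, which the liver releases in greater or smaller amounts during inflammation, were higher in RYGB for many members. Of 31 measured, 12 rose and none fell, where 2.03% of all genes rose; 13 had all RYGB values above all sham values, where 4.34% of genes did. The group's median log2 fold change was 2.91, against 0.26 over all genes, and 2.38 with the GC trends removed, when 11 rose. Left out one at a time, RYGB 1, RYGB 5 and sham 1 gave 12 to 20 members higher, and each of the other 6 libraries gave 0. Orm1 (chr4:63344560-63348163), an orosomucoid, measured 38.8, 52.1, 4.4 and 6 CPM in sham and 1313, 6781, 2678, 504 and 169 in RYGB, a separation of the groups with a wide spread within RYGB (log2 fold change 6.10 ± 1.02 (SE), adjusted p = 0.0302). Its paralog Orm3, with which it may share reads, was listed at 0.6, 0, 0 and 0 CPM in sham and 30.0, 77.2, 32.7, 9.8 and 2.1 in RYGB (adjusted p = 0.0302). Hpx, hemopexin, which binds free heme, was at 269, 304, 15.8 and 48.5 CPM in sham and 1252, 9179, 7874, 1691 and 330.4 in RYGB (log2 fold change 4.59 ± 1.07 (SE), adjusted p = 0.0441). RYGB 2 and 3 were far above the rest, and RYGB 5 was close to the upper sham livers.

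The 3 fibrinogen chains rose together with these. Fgb measured 2455, 2089, 913 and 904 CPM in sham and 6817, 18587, 14146, 5574 and 3079 in RYGB (log2 fold change 2.46 ± 0.54 (SE), adjusted p = 0.0392), and Fga and Fgg rose by 3.59 (adjusted p = 0.0392) and 3.72 (adjusted p = 0.0421). For each chain the lowest RYGB liver exceeded the highest sham liver. The protease inhibitors Serpina3k, Serpina3m and Serpina3n rose by 3.99, 2.43 and 3.09 (adjusted p = 0.0302, 0.0478 and 0.0392). They are paralogs that may share some reads, and Serpina3m did not pass with the GC trends removed (adjusted p = 0.0541). Ahsg, fetuin A, whose plasma level is known to drop in the acute phase, rose by 2.25 (adjusted p = 0.0424). Itih3 and Saa4, a constitutively made serum amyloid A, rose by 4.59 and 3.56 (adjusted p = 0.0424 and 0.0489). Saa1, the strongly inducible serum amyloid A, was at 9.1, 23, 2.5 and 7.9 CPM in sham and 564, 8846, 3336, 54.6 and 15.8 in RYGB. That is a large shift in RYGB 1 to 3, but RYGB 5 lay within the sham range and the gene did not pass (adjusted p = 0.0669). Hamp, the iron hormone hepcidin, did not pass either (adjusted p = 0.449): it was at 23.3, 19.6, 12.6 and 38.5 CPM in sham and 0.1, 414, 492, 115 and 66 in RYGB, with RYGB 1 below each sham liver and the other RYGB livers above them.

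**Figure D3:**
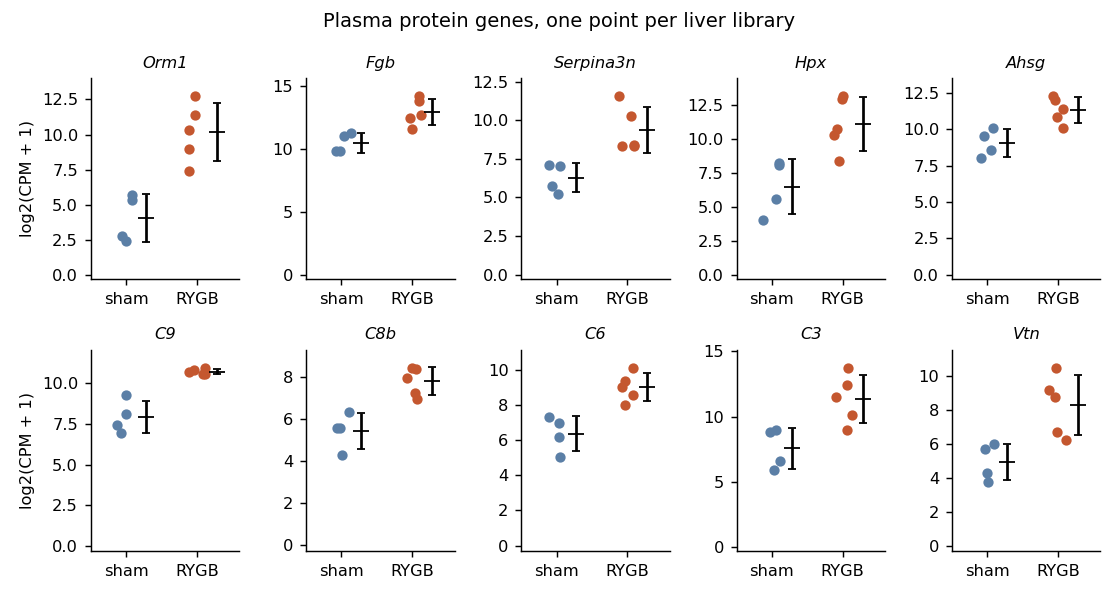
Values of 10 plasma protein genes in log2(CPM + 1), 1 point per liver library (4 sham in blue, 5 RYGB in orange), with the mean and SD of each group in black. Each gene except Ahsg has all RYGB points above all sham points, and the RYGB spread is wide for Orm1, Hpx, C3 and Vtn and narrow for C9.

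Complement genes, whose products mark and lyse microbes, showed the same direction. Of 28 measured, 10 rose and none fell, where 2.03% of all genes rose, and 13 had all RYGB values above all sham values, where 4.34% of genes did. The median was 1.95 (1.52 with the GC trends removed, when 12 rose). Without RYGB 1, RYGB 5 or sham 1, 14 to 19 members were higher, and without any other single library 0 or 1. Among the genes that rose, Mbl1 recognises microbial sugars, C1s1 and C2 are early proteases, C3 is the central component, C6, C8a, C8b and C9 build the membrane attack complex, and Vtn and Clu restrain it. C9 measured 271, 612, 123 and 173 CPM in sham and 1551, 1662, 1495, 1802 and 1969 in RYGB (log2 fold change 2.79 ± 0.41 (SE), adjusted p = 0.0168; GC-adjusted 2.94). The 5 RYGB livers lay close together, and sham 2 was the nearest sham liver. C8b was at 46.1, 81.2, 18.3 and 47.2 CPM in sham and 124, 153, 341, 350.4 and 249 in RYGB (log2 fold change 2.37 ± 0.44 (SE), adjusted p = 0.0302). C6, C8a and C2 rose by 2.63, 2.20 and 2.75 (adjusted p = 0.0313, 0.0424 and 0.0392), and Mbl1, C1s1 and Clu by 1.91, 1.77 and 2.88 (adjusted p = 0.045, 0.0478 and 0.0497). C3 was at 441, 494, 59 and 95.1 CPM in sham and 1142, 5548, 13552, 2919 and 495 in RYGB (log2 fold change 3.80 ± 0.90 (SE), adjusted p = 0.0441), with RYGB 5 only just above sham 2. Vtn, vitronectin, rose by 3.34 (adjusted p = 0.0432). In the coagulation list, 5 of 25 measured members rose and none fell, with a median of 1.22: the fibrinogen chains, Kng1, kininogen, by 2.82 (adjusted p = 0.0355), and Cpb2, which slows clot breakdown, by 3.20 (adjusted p = 0.0392).

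Some markers of macrophages also passed. Of 13 measured Kupffer cell markers, 5 rose and none fell, with a median of 2.38 (2.03 with the GC trends removed, when 5 again passed). Only 3 of the 13 had all RYGB values above all sham values, where 4.34% of genes did, so some that rose overlapped between the groups. Cd163, a hemoglobin scavenger receptor, was at 7.7, 4.3, 5.1 and 5.7 CPM in sham and 74.2, 141, 119, 32.2 and 15 in RYGB (log2 fold change 3.15 ± 0.57 (SE), adjusted p = 0.0302). Sham livers varied little, and RYGB 5 was the lowest RYGB liver. Clec4f, a lectin of Kupffer cells, Csf1r, the receptor for macrophage colony-stimulating factor, Cd5l, a protein secreted by macrophages, and Timd4, which binds phosphatidylserine on dying cells, rose by 3.42, 3.29, 2.71 and 2.38 (adjusted p = 0.0424, 0.0441, 0.0477 and 0.045). The summed level of the 13 markers overlapped between the groups, 825 to 1851 CPM in sham and 860 to 2149 in RYGB, and Slc40a1, the iron exporter ferroportin, was the most abundant of them. It was at 965, 734, 1786 and 1562 CPM in sham and 1334, 672, 688, 393 and 731 in RYGB (adjusted p = 0.192). Slc40a1 thus supplied most of the sum in each sham liver. Without it the groups still overlapped. Sham 1 had 965 CPM of Slc40a1 in a sum of 1174.1, and RYGB 5 had 731 in a sum of 859.9. The other markers together were therefore lower in RYGB 5 than in sham 1. Of 9 measured markers of inflammatory or lipid-associated macrophages, Il1b and Lyz2 rose, by 2.25 (adjusted p = 0.0478) and 3.52 (adjusted p = 0.0477), and the others did not pass. Both genes overlapped between the groups. RYGB 5 had 0.8 CPM of Il1b against 7.4 to 10.8 in the other RYGB livers. The median of the 9 was 0.38, near that of all genes. Their summed level was 121 to 328 CPM in sham and 144 to 696 in RYGB. Without RYGB 1, RYGB 5 or sham 1, 8 to 10 Kupffer markers were higher, and without any other single library 0.

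Some markers of other cell types passed too. Of 10 hepatocyte markers, all were measured and 3 rose: Ahsg and Fgb as above, and Serpina1a by 2.81 (adjusted p = 0.0484). None fell, where 2.03% of all genes rose and 2.60% fell. The median was 1.40 (0.93 with the GC trends removed, when 3 again rose), against 0.26 over all genes. The summed level of the 10 was 63600 to 73670 CPM in sham and 60470 to 128000 in RYGB, and these genes were abundant in every library. Pecam1, an endothelial adhesion molecule, rose by 2.22 (adjusted p = 0.0441), 1 of 14 endothelial markers. Of the neutrophil markers, 3 of 12 were in the table, with a summed level of 0.3 to 2.9 CPM in sham and 1.3 to 105.5 in RYGB. S100a8, their most abundant, was at 1.2, 1.4, 0.2 and 0.2 CPM in sham and 61.9, 81.5, 30.7, 4.8 and 1.2 in RYGB (adjusted p = 0.0513). The median of the 3 was 2.20 (2.17 with the GC trends removed), and all 3 were higher at an unadjusted p below 0.05 by limma. Every gene in the liver data had at least 1 CPM in at least 4 libraries. The 3 markers together reached only 0.3 and 0.4 CPM in sham 3 and 4, so none could be included without RYGB livers. Their shared direction may follow from that filter and is not support for a rise. None passed in the main comparison, and 1 passed under median-of-ratios scaling and 1 with the GC trends removed. Cxcl13, a chemokine that attracts B cells, was at 15.6, 2.6, 1.5 and 2.6 CPM in sham and 2076, 804, 162, 64.1 and 5 in RYGB. Of the 5 RYGB livers, 4 were above the sham range and RYGB 5 lay within it, and the gene did not pass (adjusted p = 0.062). The part of these cells' RNA in the plasma protein result was not tested. Of 33 measured interferon response genes, none passed limma's adjusted threshold and 6 higher and 5 lower had an unadjusted p below 0.05. Their median was 0.15, and with the GC trends removed 1 was higher.

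Some members of a list of fatty acid oxidation genes and PPARA targets, which fasting normally engages, went the other way. Of 32 measured, 7 fell and none rose, where 2.60% of all genes fell; 8 had all RYGB values below all sham values, where 8.01% of genes did. Their median was -0.73 (-1.08 with the GC trends removed, when 7 fell). At an unadjusted p below 0.05 by limma, 14 were lower and 2 higher, and 10 of the 32 had a positive log2 fold change. Left out one at a time, RYGB 1, RYGB 5 and sham 1 gave 7 to 13 members lower, with 2 higher without RYGB 1, and each of the other 6 libraries gave 0 to 2 lower. Acot4 (chr12:84038379-84048601), a peroxisomal acyl-CoA thioesterase, measured 171, 179.7, 235 and 211 CPM in sham and 41.3, 14.8, 48.5, 20.9 and 42.9 in RYGB (log2 fold change -2.65 ± 0.36 (SE), adjusted p = 0.0111). The sham livers lay close together, and every RYGB liver was far below them. Its call stood in 7 of the 9 leave-one-out fits. The paralogs Acot2, in mitochondria, and Acot3, in peroxisomes, had log2 fold changes of -3.44 (adjusted p = 0.0231) and -3.82 (adjusted p = 0.0392), and their reads may be divided uncertainly among family members.

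Vnn1, pantetheinase, which is among the genes most responsive to PPARA in liver, was at 1301, 977, 1349 and 1057 CPM in sham and 17.9, 18.7, 137, 83.7 and 397 in RYGB (log2 fold change -4.04 ± 0.75 (SE), adjusted p = 0.0302). RYGB 5 was the RYGB liver nearest to sham. Cyp4a14 (chr4:115486200-115496142), a fatty acid omega-hydroxylase, measured 5201, 4334, 3972 and 10826 CPM in sham and 149, 30.4, 1208, 182 and 2824 in RYGB (log2 fold change -4.16 ± 1.04 (SE), adjusted p = 0.0468), with RYGB 3 and 5 nearest to sham. Fgf21, a hormone the fasted liver releases, was at 3.7, 4.3, 6.3 and 11.9 CPM in sham and 0, 0, 0.4, 0.2 and 3.5 in RYGB (log2 fold change -2.21 ± 0.50 (SE), adjusted p = 0.0421). Only RYGB 5 came close to the sham livers. Hadhb, the beta subunit of the mitochondrial trifunctional protein, fell by 2.56 (adjusted p = 0.0392), with an overlap between RYGB 5 and sham 1, and did not pass with the GC trends removed (adjusted p = 0.0601). Ppara itself did not pass: it was at 96.6, 76.9, 8.5 and 8.7 CPM in sham and 23.1, 34.7, 152, 147 and 84.6 in RYGB (adjusted p = 0.257), and sham 3 and 4 were the lowest of the 9 libraries.

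**Figure D4:**
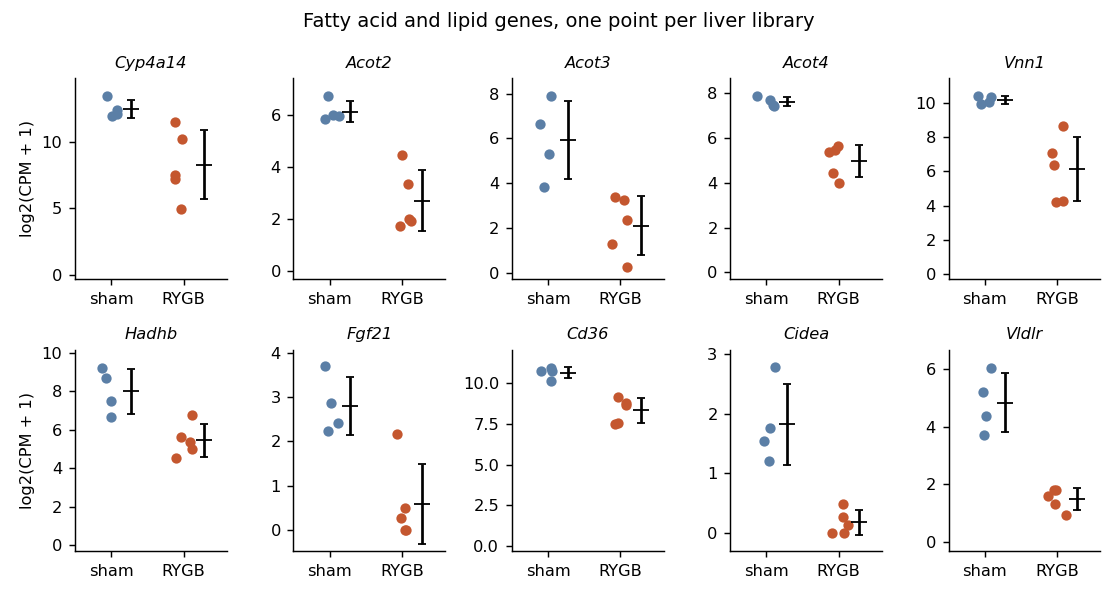
Values of 10 fatty acid and lipid genes in log2(CPM + 1), 1 point per liver library (4 sham in blue, 5 RYGB in orange), with the mean and SD of each group in black. All RYGB points lie below all sham points for each gene except Hadhb, and the highest RYGB point of Cyp4a14, Vnn1 and Fgf21 is RYGB 5.

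Of 21 measured genes of lipid droplets and lipases, 2 fell and none rose, and the median was 0.22 (-0.49 with the GC trends removed, when 4 fell). Cd36, a fatty acid transporter, measured 1969, 1717, 1694 and 1142 CPM in sham and 570, 448, 183, 186 and 410.3 in RYGB (log2 fold change -2.30 ± 0.39 (SE), adjusted p = 0.026; GC-adjusted -1.64). Every RYGB liver was far below the lowest sham liver. Cidea, a droplet fusion protein at a low level here, was at 1.9, 2.4, 1.3 and 5.9 CPM in sham and 0.1, 0.4, 0, 0 and 0.2 in RYGB (log2 fold change -1.65 ± 0.36 (SE), adjusted p = 0.0392). Of 9 adipocyte markers, 6 were in the table; Adipoq, adiponectin, was at 1.5, 0.7, 0.5 and 1 CPM in sham and 1.6, 1.6, 1.7, 1.3 and 1.8 in RYGB. Car3, carbonic anhydrase 3, which liver also makes, supplied nearly all of their sum (1886 to 8672 CPM in sham and 49.4 to 3741 in RYGB). Among 25 measured genes of fatty acid and triglyceride synthesis, the median was 1.08 and none passed limma's adjusted threshold, although 9 higher and 3 lower had an unadjusted p below 0.05 and 2 passed under median-of-ratios scaling. Scd1, stearoyl-CoA desaturase, was at 1982, 3903, 724 and 2379.9 CPM in sham and 35375, 5142, 3972, 7267 and 4493 in RYGB (adjusted p = 0.0746). The groups did not overlap, and RYGB 1 stood far above the rest. Fasn, fatty acid synthase, was at 4.4, 5, 2.5 and 2.9 CPM in sham and 8.2, 8, 15.3, 14.1 and 4.9 in RYGB (adjusted p = 0.0816).

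Cholesterol genes rose in 3 of 27 cases and fell in none, with a median of 0.93 (0.48 with the GC trends removed, when 2 rose). Fdps and Nsdhl, enzymes of the mevalonate and late sterol steps, rose by 2.90 (adjusted p = 0.0392) and 2.87 (adjusted p = 0.0441). Srebf2, the transcription factor that drives sterol synthesis, rose by 1.62 (adjusted p = 0.0484; 0.0971 with the GC trends removed). Of 24 measured bile acid genes, 2 rose and none fell, and the median was 0.27 (-0.01 with the GC trends removed). Abcb11, the bile salt export pump, measured 287, 309, 74.9 and 137 CPM in sham and 422, 761, 949.7, 1316 and 446 in RYGB (log2 fold change 2.02 ± 0.47 (SE), adjusted p = 0.0424). Cyp27a1, which starts the alternative route of bile acid synthesis, was at 31.6, 41, 3.1 and 13.9 CPM in sham and 42.8, 105, 311, 232 and 65.1 in RYGB (log2 fold change 2.79 ± 0.71 (SE), adjusted p = 0.0473). For both, each RYGB liver exceeded every sham liver, and for Cyp27a1 the margin of RYGB 1 over sham 2 was small. Cyp7a1, the rate-limiting enzyme of the classic route, was at 892, 568, 588 and 977 CPM in sham and 328, 4.5, 22.2, 78 and 451 in RYGB. All RYGB values were below all sham values, but the RYGB values ranged widely and the gene did not pass (log2 fold change -3.43, adjusted p = 0.0743). Tm6sf2, which helps load lipid onto lipoproteins, rose by 2.14 (adjusted p = 0.0459; 0.0537 with the GC trends removed).

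Among 39 measured cytochrome P450 and drug metabolism genes, 2 rose and 2 fell, and the median was 0.51. Beside Cyp2c70, the second to rise was Cyp2b10, listed at 0 in all 4 sham livers and at 1.5, 5.1, 2.7, 7 and 1.3 CPM in RYGB (adjusted p = 0.0355; 0.0547 with the GC trends removed). Its close relative Cyp2b9 (chr7:26173411-26210661) measured 258, 91.1, 106 and 12 CPM in sham and 6.5, 0, 3.3, 0.2 and 0.3 in RYGB (log2 fold change -5.12 ± 0.83 (SE), adjusted p = 0.0243; GC-adjusted -5.51). Every RYGB value was below every sham value, and sham 4 was the lowest sham liver. Ahr, the aryl hydrocarbon receptor, which senses foreign chemicals, fell by 1.19 (adjusted p = 0.0441). Of 27 nuclear receptors and hepatic transcription factors, 3 fell and none rose, with a median of -0.26 (-0.76 with the GC trends removed, when 6 fell). Nr2f2, an orphan nuclear receptor, was at 194, 175, 161 and 277 CPM in sham and 62.3, 42.3, 34, 73.3 and 69.1 in RYGB (log2 fold change -1.85 ± 0.30 (SE), adjusted p = 0.0254), well apart. Prox1, a homeobox factor of hepatocytes, fell by 1.19 (adjusted p = 0.0441). Without RYGB 1, RYGB 5 or sham 1, 4 to 7 of these factors were lower and 5, 0 and 1, in that order, were higher; without any other single library none passed in either direction by limma.

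The chaperones of the endoplasmic reticulum, where plasma proteins fold, and targets of ATF4, a factor active under amino acid shortage, were tested as 1 list of 30 measured genes. Of these 9 rose and 1, Fgf21, fell, and the median was 1.14 (0.73 with the GC trends removed, when again 9 rose and 1 fell). Asns, asparagine synthetase and a target of ATF4, measured 1, 0.5, 0.1 and 0.1 CPM in sham and 7.7, 31.4, 17, 12.4 and 8.1 in RYGB (log2 fold change 3.38 ± 0.46 (SE), adjusted p = 0.0111). All sham livers were at or below 1 CPM and all RYGB livers well above it, and the call stood in 7 of the 9 leave-one-out fits. Hspa5, the main chaperone of the compartment, was at 954, 588, 75.5 and 115 CPM in sham and 978, 2434, 1791, 1129 and 1816 in RYGB (log2 fold change 2.54 ± 0.66 (SE), adjusted p = 0.0484). Sham 3 and 4 were low, and sham 1 was just below the lowest RYGB liver. Pdia6, which forms disulfide bonds, rose by 1.39 (adjusted p = 0.0351), and Calr, which folds glycoproteins, by 2.76 (adjusted p = 0.0424). The co-chaperones Dnajb11 and Sdf2l1 rose by 1.80 and 3.37 (adjusted p = 0.0392 and 0.0396), and Manf, a secreted stress protein, Hyou1, a further chaperone, and Atf4 itself by 2.89, 3.32 and 1.67 (adjusted p = 0.0392, 0.0478 and 0.045); Atf4 did not pass with the GC trends removed (adjusted p = 0.087). Without RYGB 1, RYGB 5 or sham 1, 9 to 13 members were higher, and without any other single library 0 or 1.

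Promoter sequences of RefSeq genes (GRCm38.p6, 250 bases before to 50 after the start of transcription) were searched on both strands for the endoplasmic reticulum stress response element, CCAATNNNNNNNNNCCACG. It was found in 7 of the 27 measured members of the list that had a promoter sequence, and in 0.137% of the 27025 genes with one. The shorter element through which ATF4 acts with C/EBP factors, TGATGNAA, was found in 4 of those 27 and in 4.51% of all genes. Of the 8 members that passed and had a promoter sequence, Hspa5, Calr and Pdia6 held the first element and Asns and Fgf21 the second. Canx, Creld2, Dnajc3 and Hsp90b1 also held the first, and Herpud1 and Trib3 the second, and these did not pass. The list was chosen for genes of these stress responses, so its share of matches follows from that choice and says nothing about RYGB. A match describes the letters and is no evidence of binding. The promoters of 3 chaperones and of Asns are shown because these are members that passed and hold an element, 5′ to 3′ along the gene, with the matched element in capitals.
Hspa5 (chr2:34771840-34772139, plus strand): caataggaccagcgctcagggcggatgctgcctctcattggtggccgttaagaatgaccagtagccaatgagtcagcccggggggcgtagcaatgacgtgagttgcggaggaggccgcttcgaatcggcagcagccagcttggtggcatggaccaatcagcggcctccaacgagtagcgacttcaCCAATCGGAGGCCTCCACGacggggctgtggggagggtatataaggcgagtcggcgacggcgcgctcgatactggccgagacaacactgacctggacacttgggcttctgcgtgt
Calr (chr8:84846882-84847181, minus strand): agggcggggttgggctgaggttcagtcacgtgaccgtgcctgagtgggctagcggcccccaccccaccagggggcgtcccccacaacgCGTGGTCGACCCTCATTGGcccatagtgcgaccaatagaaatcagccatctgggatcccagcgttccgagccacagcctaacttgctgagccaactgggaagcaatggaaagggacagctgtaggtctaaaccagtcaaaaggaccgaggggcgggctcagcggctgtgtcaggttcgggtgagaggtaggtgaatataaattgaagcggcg
Pdia6 (chr12:17266339-17266638, plus strand): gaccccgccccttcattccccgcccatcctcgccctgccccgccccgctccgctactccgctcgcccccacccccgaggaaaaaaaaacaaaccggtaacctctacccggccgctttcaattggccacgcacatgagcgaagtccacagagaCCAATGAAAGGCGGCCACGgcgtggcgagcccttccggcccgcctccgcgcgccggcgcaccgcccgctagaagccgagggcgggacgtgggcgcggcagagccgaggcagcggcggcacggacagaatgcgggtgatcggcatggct
Asns (chr6:7693160-7693459, minus strand): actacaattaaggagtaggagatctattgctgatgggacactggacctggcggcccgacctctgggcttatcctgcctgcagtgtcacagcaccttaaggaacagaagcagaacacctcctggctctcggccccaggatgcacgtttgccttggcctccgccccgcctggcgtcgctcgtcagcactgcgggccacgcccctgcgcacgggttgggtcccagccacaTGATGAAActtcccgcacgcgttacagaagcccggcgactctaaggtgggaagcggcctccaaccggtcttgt

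Clock genes moved in both directions. Of 23 measured, 2 rose and 3 fell, with a median of -0.34 (-0.52 with the GC trends removed, when 1 rose and 5 fell). All animals were killed at the same time of day, per the series' description. Arntl, the core activator also called BMAL1, measured 2.9, 3.1, 2.5 and 5.1 CPM in sham and 16.9, 36.5, 9.3, 17 and 22.6 in RYGB (log2 fold change 2.19 ± 0.41 (SE), adjusted p = 0.0303). Nfil3, a repressor of clock output genes, was at 2.7, 1.9, 0.5 and 5.2 CPM in sham and 6.3, 35.5, 44.8, 21.5 and 6.7 in RYGB (log2 fold change 2.54 ± 0.63 (SE), adjusted p = 0.0459; adjusted p = 0.0604 with the GC trends removed). Each RYGB liver was above each sham liver for both. Hlf, an output activator that opposes Nfil3, was at 369.8, 376, 326 and 219 CPM in sham and 97.2, 41.7, 53.1, 82.2 and 156 in RYGB (log2 fold change -2.02 ± 0.37 (SE), adjusted p = 0.0302), again without overlap. Per2, a core repressor, fell by 1.64 (adjusted p = 0.0478), and Wee1, a cell cycle kinase under clock control, fell by 2.16 (adjusted p = 0.0351). Dbp, an output activator related to Hlf, was at 8.7, 5.2, 3.4 and 2.1 CPM in sham and 0.9, 0, 13.3, 6.5 and 0.3 in RYGB, with wide overlap (adjusted p = 0.439, not passing).

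The element bound by ROR activators and REV-ERB repressors, TAGGTCA, was present in the promoter sequences of 2 of the 18 measured clock members with one, and in 2.97% of all genes. Those 2 members were Arntl and Nfil3, the genes of the list that rose. The list was chosen for clock genes, so its matches may follow from that choice and say nothing about RYGB. Both promoters are shown with the element in capitals for that reason. Of the clock members that passed, only 3 had a promoter sequence, so not all of those that fell were searched. Here too a match is no evidence of binding. Arntl has 2 promoter entries, of which the one with the match is given.
Arntl (chr7:113207261-113207560, plus strand): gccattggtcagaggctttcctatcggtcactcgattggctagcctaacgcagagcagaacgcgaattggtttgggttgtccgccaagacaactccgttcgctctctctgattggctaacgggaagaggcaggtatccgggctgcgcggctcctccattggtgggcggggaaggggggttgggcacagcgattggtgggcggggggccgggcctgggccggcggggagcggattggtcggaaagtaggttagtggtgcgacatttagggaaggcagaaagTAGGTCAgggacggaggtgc
Nfil3 (chr13:52980990-52981289, minus strand): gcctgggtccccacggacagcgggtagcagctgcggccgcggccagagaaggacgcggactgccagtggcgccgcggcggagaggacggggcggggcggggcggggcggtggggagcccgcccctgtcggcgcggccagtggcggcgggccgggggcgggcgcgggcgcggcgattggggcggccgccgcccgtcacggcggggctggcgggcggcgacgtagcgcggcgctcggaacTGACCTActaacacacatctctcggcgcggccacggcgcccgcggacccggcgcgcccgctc

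Glucose and hormone genes changed in few cases. Of 21 genes of gluconeogenesis and glycogen, 2 rose and none fell, and the median was 0.82. G6pc, the catalytic subunit that releases free glucose, measured 97, 116, 13 and 41.6 CPM in sham and 119, 168, 295, 757 and 476 in RYGB (log2 fold change 2.52 ± 0.65 (SE), adjusted p = 0.0484). Sham 2 and RYGB 1 were almost equal. Its partner Slc37a4, the glucose 6-phosphate carrier, rose by 1.81 (adjusted p = 0.0486; 0.0613 with the GC trends removed). Pck1, the enzyme that commits carbon to glucose, was at 434 ± 134 CPM in sham (mean ± SD, n = 4) and 714 ± 154 in RYGB (n = 5), a difference that did not pass (adjusted p = 0.116). In the insulin and growth hormone list, Serpina1e was the only one of 30 measured members to pass in the main comparison, and the median was 0.50. Igf1, insulin-like growth factor 1, was at 2059, 2383, 4140.3 and 2682 CPM in sham and 2605, 1452, 1144, 1351 and 2342 in RYGB, with overlap (adjusted p = 0.189; GC-adjusted log2 fold change 0.00). Ghr, the growth hormone receptor, was at 1324, 2049, 2514 and 1915 CPM in sham and 1162, 562, 705, 1310 and 1099.9 in RYGB. It was lower in every RYGB liver than in any sham liver and missed the threshold (log2 fold change -1.04, adjusted p = 0.0737).

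Of 26 hepatokines and endocrine receptors, 5 rose and 1, Fgf21, fell, with a median of 0.85. Fst, follistatin, which blocks activins, was at 6.9, 3.3, 1 and 3.2 CPM in sham and 63.6, 55.4, 12, 46.5 and 7.6 in RYGB (log2 fold change 2.80 ± 0.64 (SE), adjusted p = 0.0424). RYGB 5 was close to sham 1. Fetub, fetuin B, Adipor2, an adiponectin receptor, and Fgfr1, an FGF receptor, rose by 3.13, 2.06 and 1.47 (adjusted p = 0.0454, 0.048 and 0.045), Fgfr1 not passing with the GC trends removed (adjusted p = 0.176). Among 24 iron and heme genes, 5 rose and 1 fell, with a median of 1.07 (0.52 with the GC trends removed, when again 5 rose and 1 fell). Slc39a14, which imports iron and zinc, measured 63.8, 82.4, 19.5 and 31 CPM in sham and 185, 552, 437, 181 and 102 in RYGB (log2 fold change 2.49 ± 0.53 (SE), adjusted p = 0.0392), without overlap. Slc11a2, a divalent metal transporter, Hfe, an iron sensor, and Urod, an enzyme of heme synthesis, rose by 2.15, 1.48 and 2.35 (adjusted p = 0.0424, 0.0449 and 0.0471), as did Hpx. Cpox, the enzyme that follows Urod in heme synthesis, was at 563, 772, 1491 and 1633 CPM in sham and 186, 149, 133, 145 and 398 in RYGB (log2 fold change -2.45 ± 0.41 (SE), adjusted p = 0.0259; GC-adjusted -2.75). It was lower in all RYGB livers. Of 38 genes of amino acid breakdown and the urea cycle, Asl, argininosuccinate lyase, alone passed, higher by 2.08 (adjusted p = 0.0374), a share near the 2.03% of all genes. The list's median was 0.89, 18 members were higher and 2 lower at an unadjusted p below 0.05, and 6 were higher under median-of-ratios scaling.

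Splicing factors of the SR family and their kinases fell in 7 of 24 cases and rose in none, where 2.60% of all genes fell, and 12 had all RYGB values below all sham values, where 8.01% of genes did. Their median was -0.77. These genes have AT-rich transcripts, with a median GC content of 43.0% against 48.2% over all genes, and with the GC trends removed the median was -0.44 and 5 fell. Srsf5 was at 340.1, 262, 1158 and 817 CPM in sham and 148, 62.6, 95.6, 81.1 and 142 in RYGB (log2 fold change -2.41 ± 0.45 (SE), adjusted p = 0.0302; GC-adjusted -1.90, adjusted p = 0.0403). Every RYGB liver was below every sham liver, and sham 3 and 4 were the highest. Srsf2 fell by 1.50 (adjusted p = 0.0392). Of 42 genes of the respiratory chain and ATP synthase, Sdhd, a subunit of succinate dehydrogenase, alone passed (log2 fold change -1.09, adjusted p = 0.0471). That is a share near the 2.60% of all genes that fell, and the list's median was 0.51. Of 45 measured cytosolic ribosomal protein genes 2 rose, with a median of 0.43 that went to -0.04 with the GC trends removed. Of 34 proteasome subunits, with a median of 1.20, none passed limma's adjusted threshold, although 19, all higher, had an unadjusted p below 0.05 and 5 passed under median-of-ratios scaling.

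To show where the liver differed from other tissues of the same animals, the liver value of each gene was set against that in subcutaneous white adipose tissue (WAT) or gastrocnemius muscle within each animal, and the RYGB and sham animals were compared on that difference. The animal of RYGB 5 had no WAT or muscle library, and that of sham 2 had no muscle library. The tissue differences thus leave out RYGB 5, often the RYGB liver nearest to sham, while the liver calls rest on all 9 livers. Against WAT, with 4 sham and 4 RYGB animals and 9707 shared genes, 1245 genes differed (12.8%), 898 toward higher in liver (9.25%) and 347 toward lower (3.57%); the split was 636 and 611 with median-of-ratios scaling, and 664 and 785 with the GC trends removed. Of the 430 genes called in liver and tested here, 204 differed. The same liver values enter both tests, so that share is raised by the choice of genes and is no separate support. In WAT itself, 43.3% of the shared genes passed between RYGB and sham, counting both directions. That value is therefore not a like background for the same-direction share that follows. Of the 430 liver calls, 171 (39.8%) passed in WAT in the same direction, which is 4.07% of the shared WAT calls, and 45 (10.5%) passed in the opposite direction. Among those that went the same way were Vnn1, with a log2 fold change of -3.48 in WAT, Orm1 with 2.06 and Srsf5 with -1.22. Cyp2c70 had a difference of 7.13 ± 0.63 (SE), adjusted p = 5.98e-05; in WAT it was at 4.66 ± 2.34 CPM in sham (mean ± SD, n = 5) and 0.525 ± 0.263 in RYGB (n = 4). Scara5 fell in WAT, from 44.4 ± 4.87 CPM to 18.5 ± 6.47, while it rose in liver (difference 6.59 ± 0.56 (SE), adjusted p = 5.94e-05). C6 likewise went from 46.1 ± 27.9 CPM to 4.15 ± 2.33 in WAT (difference 5.41 ± 0.69 (SE), adjusted p = 0.00072). Serpina1e had a difference of 6.46 ± 0.97 (SE), adjusted p = 0.00193, and Hpx one of 6.03 ± 0.84 (SE), adjusted p = 0.00124. For Fgg the difference was 4.98 ± 0.80 (SE), adjusted p = 0.00256, and for Prg4, a secreted lubricant proteoglycan, it was 4.77 ± 0.65 (SE), adjusted p = 0.000989.

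In the other direction, Cidea gave the largest difference toward lower in liver among the genes called in liver and here. It rose in WAT, from 4.36 ± 2.45 CPM in sham to 178 ± 146 in RYGB, and fell in liver (difference -6.46 ± 0.72 (SE), adjusted p = 0.000289). Hadhb and Acot2 rose in WAT, by 0.96 and 0.73, and fell in liver (difference -3.94 ± 0.51 (SE), adjusted p = 0.000773 for Hadhb and -4.63 ± 0.56 (SE), adjusted p = 0.000598 for Acot2). Cyp4a14, at 1.02 ± 0.13 CPM in sham WAT and 1.3 ± 0.455 in RYGB WAT, and Osbpl3 also differed (Cyp4a14 -5.10 ± 0.94 (SE), adjusted p = 0.00548; Osbpl3 -4.42 ± 0.47 (SE), adjusted p = 0.00021). Left out one at a time, the animals gave 374 to 2171 genes that differed, the fewest without sham 3 and the most without RYGB 1.

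**Figure D5:**
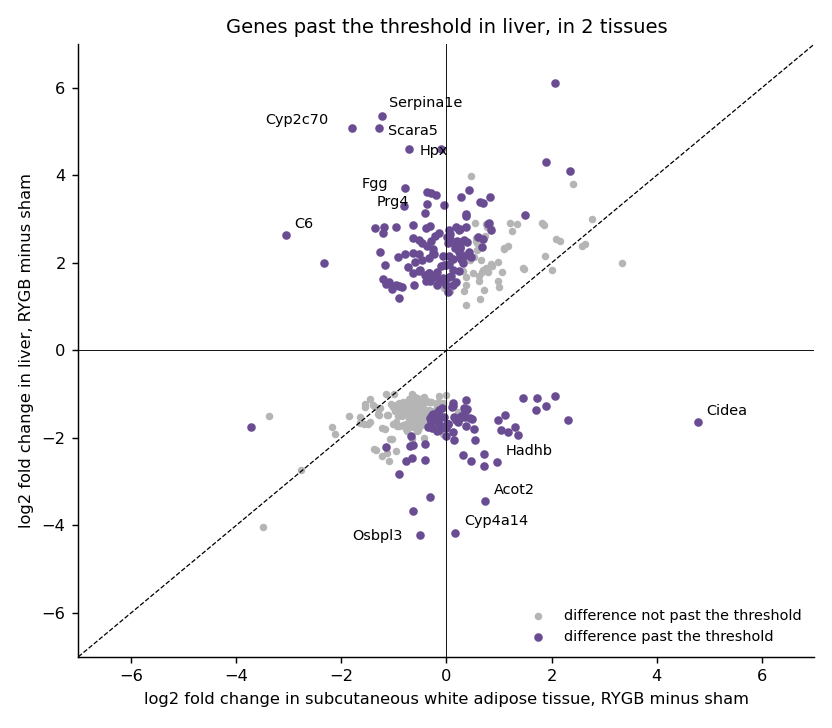
Log2 fold change after RYGB in WAT (x axis) and in liver (y axis) for the 430 genes called in liver and measured in both. The liver fold changes use all 9 livers, and the within-animal differences leave out RYGB 5. Purple points are the 204 genes for which the within-animal difference between the tissues passed an adjusted p of 0.05, grey points the rest, and the dashed line marks equal change; Cidea lies far to the right and below 0, and Cyp2c70, Scara5 and C6 lie above 0 and to the left.

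Against muscle, with 3 sham and 4 RYGB animals and 9240 shared genes, 172 differed (1.86%), 96 toward higher in liver (1.04%) and 76 toward lower (0.823%). Of the 399 liver calls tested, 104 were among them, and here too the same liver values enter both tests. Scara5 had a difference of 6.10 ± 0.68 (SE), adjusted p = 0.00263; its muscle level was 41.3 ± 7.68 CPM in sham and 33.7 ± 6.09 in RYGB (mean ± SD, n = 4 each). In muscle itself no gene passed limma's adjusted threshold between RYGB and sham, and 593 of the shared genes had an unadjusted p below 0.05. Aqp4, which fell in liver and did not pass in muscle (adjusted p = 0.595), was at 16 ± 8.15 CPM in sham muscle and 111 ± 76.3 in RYGB muscle (difference -6.00 ± 0.69 (SE), adjusted p = 0.00263). The other named genes that differed toward higher in liver were Serpina3k (4.85 ± 0.93 (SE), adjusted p = 0.0401), C3 (4.53 ± 0.76 (SE), adjusted p = 0.0327), Vtn (4.04 ± 0.77 (SE), adjusted p = 0.0401), Nnmt (4.50 ± 0.73 (SE), adjusted p = 0.0322) and Prg4 (4.67 ± 0.71 (SE), adjusted p = 0.0203). Toward lower in liver were Osbpl3 (-4.92 ± 0.43 (SE), adjusted p = 0.00042), Esrrg (-4.22 ± 0.61 (SE), adjusted p = 0.0155) and Vnn1 (-3.90 ± 0.77 (SE), adjusted p = 0.0428). The count was 3 without sham 4, 4 without sham 3, 8, 15 and 17 without RYGB 2, 3 or 4, 1722 without sham 1 and 2460 without RYGB 1.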

How the data were processed

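RNA of 9 liver libraries (4 sham, 5 RYGB) was analysed from a table of CPM (read counts scaled by the library total, to 1 decimal) deposited by the authors, and the CPM tables of WAT and muscle were used only for the within-animal differences. Reads were counted with HTSeq on GRCm38, per the submitters' processing notes; the sources used here do not give the aligner, annotation release or strand setting. The labels' protocols name total RNA and PrepX libraries. The liver table held 10291 lines, 6 without an identifier; its CPM summed to between 990758.8 and 993560.1 per library, and 16 to 255 genes were at 0. Each gene tested had at least 1 CPM in at least 4 libraries. Genes below 1 CPM in every liver of 1 group, such as Cyp2b10, Orm3 and Cidea, were therefore included only through the other group. Read depth is unknown, since whole reads could not be recovered from the CPM, so no count model was run. Coordinates are from GENCODE M21.

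log2(CPM + 1) was tested with limma 3.58.1 (R 4.3.3; lmFit, eBayes with trend and robust options, two-sided, Benjamini-Hochberg over 10285 genes, threshold 0.05), with surgery as the only term, and differences between tissues with the same fit on within-animal differences. The fit was also run on simulated data with independent noise for each gene. Those data lack the library-wide trends seen in these livers, so the run cannot show how such trends affect the calls. Alternatives were another pseudocount (0.1), a CPM filter (mean of at least 5), scaling, libraries left out, library weights and a replicate block. Removal of each library's GC trend (lowess span 0.3) and the fit without RYGB 3 and sham 3 were chosen after seeing the data. Members and gene lists were chosen with earlier results of these data known. Named genes were the 15 with the largest change per direction (adjusted p below 0.05, mean CPM of at least 5, no overlap, no provisional symbol), the 20 with the smallest p, called members of each list with up to 4 by p and 2 by level, a fixed set of metabolic genes, and 8 per direction for each tissue difference.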

Additional observations from a re-analysis of the deposited data

Results flagged for a closer look

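In 9 of 226 groups of libraries examined (the 4 sham or 5 RYGB livers, for 113 named genes), 1 library lay so far from the others that Dixon's 95% criterion was passed, the gap to the nearest library being divided by the range; chance flags about 1 in 20 groups. RYGB 5 was the far library for 4 genes. It had 28.6 CPM of Osbpl3 against 1.4 to 2.5 in the other RYGB livers (ratio 0.85) and 0.8 CPM of Il1b against 7.4 to 10.8 (0.819). It had 3.5 CPM of Fgf21 against 0 to 0.4 (0.776) and 1519 CPM of Chpt1, a phosphatidylcholine synthesis enzyme, against 522.5 to 678.2 (0.756). RYGB 1 had 3615 CPM of Serpina3k against 13160 to 21470 (0.725) and 35380 CPM of Scd1 against 3972 to 7267 (0.724). Among sham livers, sham 4 had 106.7 CPM of Acot2 against 57.3 to 63.7 (0.83), sham 3 had 7.7 CPM of Asl against 16.6 to 17.9 (0.908), and sham 1 had 0.6 CPM of Orm3 where the other 3 were listed at 0 (1.0).

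The change after RYGB differed between liver and WAT, by limma on within-animal log2 differences, for these named genes. It was higher in liver for Cyp2c70 (7.13), Scara5 (6.59), Serpina1e (6.46), Hpx (6.03), C6 (5.41), Fgg (4.98) and Prg4 (4.77). It was lower in liver for Cidea (-6.46), Cyp4a14 (-5.10), Acot2 (-4.63), Osbpl3 (-4.42) and Hadhb (-3.94). Between liver and muscle the difference was 6.10 for Scara5, 4.85 for Serpina3k, 4.67 for Prg4, 4.53 for C3, 4.50 for Nnmt and 4.04 for Vtn, and -6.00 for Aqp4, -4.92 for Osbpl3, -4.22 for Esrrg and -3.90 for Vnn1.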

How the results depend on the processing

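The 476 calls in liver became 992 with median-of-ratios scaling, 833 with the transcript length trend removed and 3258 with library weights. They became 79 without limma's trend and robust options, 27 with the number of genes at 0 as a covariate, and 2 without RYGB 3 and sham 3. With one library left out they ranged from 3 to 2253, and with the GC trends also removed they were 1508, 35, 27, 36 and 908 without RYGB 1 to 5 and 1146, 115, 3 and 34 without sham 1 to 4. The replicate number as a block left 7 calls; the numbers name different animals in the 2 groups, same-numbered deviations correlated at -0.297, 0.102, -0.352 and -0.112, and 0 of 4 matched best with their own number. The 1245 differences between liver and WAT became 739 with a pseudocount of 0.1 and 374 to 2171 with one animal left out. The 172 differences between liver and muscle became 780 with median-of-ratios scaling, 11 with a pseudocount of 0.1 and 3 to 2460 with one animal left out. The cause of these shifts was not tested.

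With the GC trends removed, list medians went to -0.49 for lipid droplets and lipases, -0.01 for bile acid genes, -0.04 for ribosomal proteins, 0.51 for fatty acid and triglyceride synthesis, -0.76 for nuclear receptors, 0.52 for iron and heme, -0.33 for interferon response and -0.44 for SR splicing factors. Without RYGB 3 and sham 3 they went to 0.69 for hepatocyte markers, -0.17 for lipid droplets, and 0.57 both for fatty acid synthesis and for ATF4 and endoplasmic reticulum genes. With one library left out, the lipid droplet median ranged from -0.03 to 0.38 and the clock median from -0.43 to 0.03. Single genes that turned sign were not called: Ppara (-0.03 with the covariate of genes at 0), Pck1 (-0.02 with the GC trends removed, and -0.06, -0.14, -0.01, -0.10, -0.30 and -0.07 without RYGB 1, 2, 4 or 5 or sham 1 or 2 as well) and Igf1 (0.00, and 0.06, 0.03, 0.02, 0.17 and 0.02 without RYGB 2, 3 or 4 or sham 3 or 4 as well). An edgeR or DESeq2 fit was not run, because the CPM did not give whole reads.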
